A study of Mus musculus with 11 samples.

Results

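Atrial and conduction marker transcripts were followed in RNA from the apex of mouse hearts. The 6 genes were the atrial light chain genes Myl7 and Myl4, sarcolipin (Sln), Bmp10, Tbx5 and the pacemaker channel gene Hcn4. Their identifiers are ENSMUSG00000020469 (Myl7), ENSMUSG00000061086 (Myl4), ENSMUSG00000042045 (Sln), ENSMUSG00000030046 (Bmp10), ENSMUSG00000018263 (Tbx5) and ENSMUSG00000032338 (Hcn4). They were taken by symbol after each Ensembl identifier was stripped of its version, and all 6 were among the 55414 gene identifiers of every file. Bulk RNA was sequenced from 11 libraries of C57BL/6 heart apex, 4 not irradiated (NR), 4 given proton radiotherapy at the standard rate (S-PRT) and 3 given it as FLASH (F-PRT), at an ultra-high dose rate. S-PRT and F-PRT apexes received a focal dose of 40 Gy in a single exposure and were taken 2 weeks later. NR apexes had no treatment, and the labels give no age. Whether each library is a different animal is not stated, and the p-values therefore cover variation among libraries that could be technical.

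The mammalian heart divides its contractile genes by chamber. Atrial cardiomyocytes use the regulatory light chain of Myl7 and the essential light chain of Myl4, while ventricular cardiomyocytes use Myl2 and Myl3 in their place. Sarcolipin is a small membrane peptide that slows the calcium pump of the sarcoplasmic reticulum, and in the mouse heart it is mainly atrial. Bmp10 encodes a secreted growth factor that in the adult heart is made mostly by the right atrium. Tbx5 is a T-box transcription factor needed for chamber formation and for the conduction system, and it stays active in atria and, at a lower level, in ventricles. Hcn4 encodes the main channel of the pacemaker current of the sinus node, with lower levels along the ventricular conduction fibres. An apex dissected cleanly from the ventricle would hold few cells of atrium or sinus node but does hold the ends of the Purkinje network.

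Depth was 20758170 to 40136578 expected counts per library. A count of 3, taken as the floor below which a level is not read, equalled 0.0747 to 0.145 CPM (counts per 1000000 of the library). The share of counts from mitochondrially encoded genes was 30.6% to 43.8% in NR, 37.1% to 43.5% in S-PRT and 24.2% to 42.3% in F-PRT. Expected counts of the 6 genes were whole numbers throughout, which shows no sign of reads divided with other genes. Myl4 was modelled with 8 transcripts, Tbx5 with 3 and the other 4 genes with 1 each. As markers of ventricle, Myl2 was at 7447 to 14933 TPM (transcripts per 1000000, which corrects for length) and Myl3 at 4471 to 10256 TPM over the 11 libraries.

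The 3 transcripts that are most restricted to atria were at or near 0 in all groups. Myl7 had 35 counts in all 11 libraries together, Sln had 5 and Bmp10 had 1, out of 321952313. These correspond to 0.109 CPM for Myl7 (95% exact Poisson interval 0.0757 to 0.151), 0.0155 CPM for Sln (0.00504 to 0.0362) and 0.00311 CPM for Bmp10 (7.9e-05 to 0.0173). The intervals cover counting error only. None of the 3 passed the filter on low counts, which 14556 genes passed, whereas Myl4, Tbx5 and Hcn4 did. In bulk RNA a change in the number of cells of a type and a change in the RNA per cell cannot be told apart.

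Myl7 counts were 0, 0, 8 and 12 in NR replicates 1 to 4. The 4 S-PRT libraries, by number, had 0, 0, 1 and 3 counts, and F-PRT libraries 2, 3 and 4 had 0, 3 and 8. In NR and in S-PRT the libraries numbered 1 and 2 had none and those numbered 3 and 4 had some, so the spread within NR was as wide as that between groups. The TMM-scaled level of NR was 0.126 ± 0.146 CPM, that of S-PRT 0.0255 ± 0.0337 CPM and that of F-PRT 0.132 ± 0.119 CPM (SD, n = 4, 4 and 3). Groups overlapped in each comparison, and the exact two-sided permutation p on log2 CPM was 0.43 (S-PRT and NR), 1 (F-PRT and NR) and 0.26 (F-PRT and S-PRT). The comparisons with F-PRT cannot go below 0.029. With the libraries of a group added together, Myl7 was at 0.161 CPM in NR (0.0982 to 0.248) and 0.0321 CPM in S-PRT (0.00875 to 0.0822). These counting intervals did not overlap, but they leave out the spread between libraries, and within that spread no difference in Myl7 was detectable. The permutation does not use the replicate numbers, and whether these pair NR and S-PRT libraries is not established. By number, Myl7 was at 0 in NR and S-PRT for 1 and 2. It was lower in S-PRT than in NR for 3 (0.0308 against 0.237 CPM) and 4 (0.0711 against 0.266 CPM). Libraries 3 and 4 were also the deepest of both groups (31186064 and 37372372 counts in NR, 33372893 and 40136578 in S-PRT).

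Sln had 1 count in NR replicate 2, 1 in S-PRT replicate 1, 3 in F-PRT replicate 3 and 0 in the other 8 libraries. Bmp10 had a single count, in S-PRT replicate 4, and 0 in the other 10. With every group at or under its floor, no fold change is given for either gene. For the 4 NR libraries together, with 124435929 counts, the floor of 3 counts equals 0.0241 CPM. With 0 counts of Bmp10 the exact 95% Poisson interval ends at 0.0296 CPM.

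**Figure D1:**
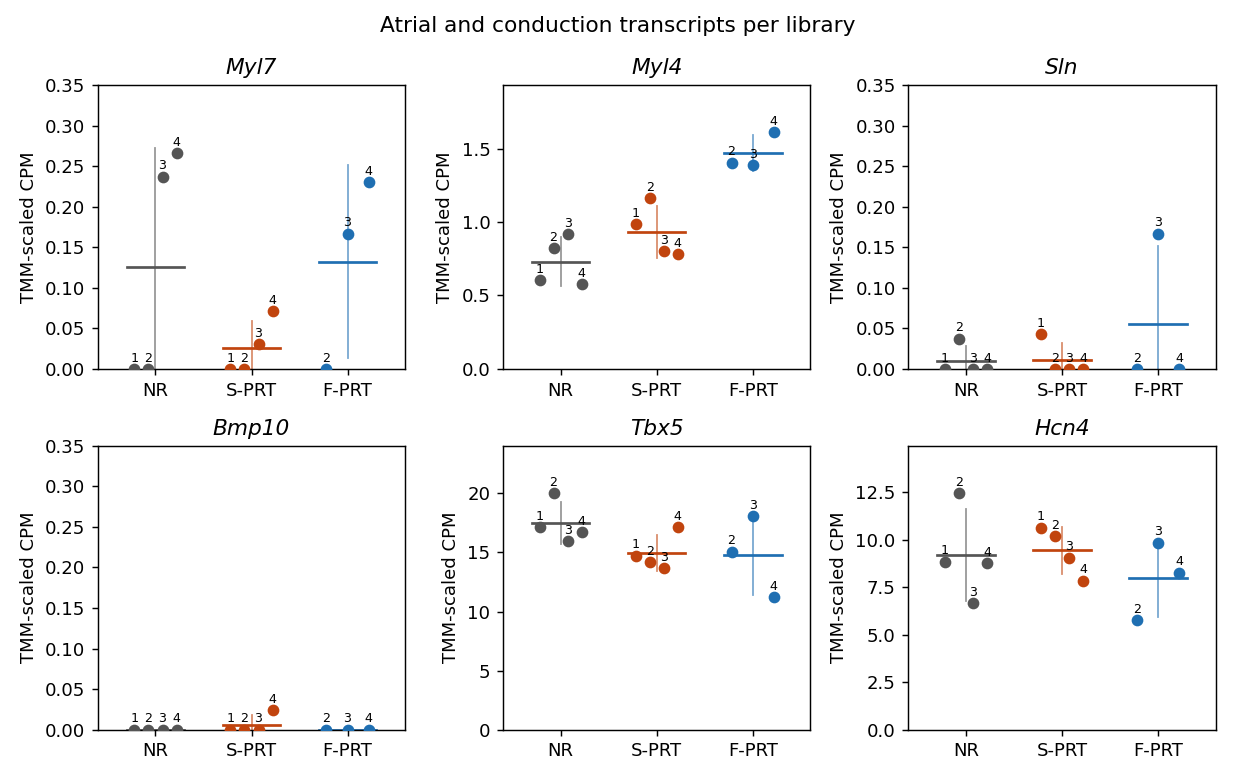
Each panel plots TMM-scaled CPM of 1 gene in every library of NR, S-PRT and F-PRT, with the replicate number at each point, a horizontal line at the group mean and a vertical line of 1 SD (cut at 0). The lowest F-PRT library for Myl4 (1.39 CPM) lies above the highest NR library (0.919 CPM), the Tbx5 and Hcn4 groups overlap, and Myl7, Sln and Bmp10 stay under 0.27 CPM.

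On the length-scaled TPM level the 6 genes ran in the order Tbx5, then Hcn4 and Myl4, then Myl7, with Sln and Bmp10 last. Tbx5 averaged 5.61 ± 0.78 TPM (NR), 4.10 ± 1.38 TPM (S-PRT) and 4.03 ± 0.65 TPM (F-PRT; SD, n = 4, 4 and 3), above all other members in each library. Hcn4 was at 1.46 ± 0.38, 1.30 ± 0.03 and 1.25 ± 0.26 TPM, and Myl4 at 1.06 ± 0.43, 1.14 ± 0.27 and 2.38 ± 0.80 TPM. Hcn4 and Myl4 did not differ beyond their spread in NR or S-PRT, and Hcn4 was the higher of the pair in 6 of 11 libraries. In the 3 F-PRT libraries Myl4 was the higher, by 1.49, 0.30 and 1.59 TPM in replicates 2 to 4. Set against the ventricular genes, these are low levels. Myl3 exceeded Myl4 by 2985- to 7097-fold in TPM within a library. Myl2 exceeded Myl7 by 14950-fold in NR 3, 11850-fold in NR 4 and 22974-fold in F-PRT 4, the libraries with more than 3 counts of Myl7. In the 5 libraries with 0 counts it was at least 27291-fold higher, taking Myl7 at 3 counts per library.

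**Figure D2:**
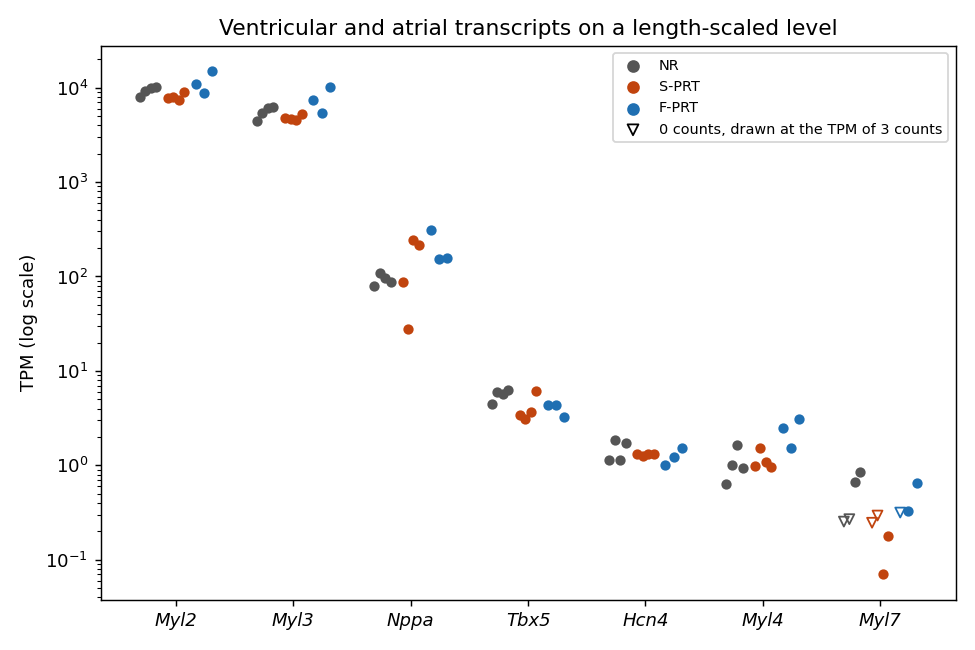
TPM on a log axis for 4 members and for the ventricular light chain genes Myl2 and Myl3 and the natriuretic peptide gene Nppa, with 1 point per library and colours for the groups. Libraries with 0 counts of Myl7 are drawn as open triangles at the TPM of 3 counts (0.247 to 0.317), and ventricular light chains lie at 4471 TPM or more while Myl4 and Myl7 lie at 3.11 TPM or less.

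S-PRT and NR were set against each other to compare these transcripts with and without irradiation at the standard dose rate. Of the 6 genes 3 were tested, of which 0 changed by edgeR or DESeq2 and 0 had an unadjusted p under 0.05. Across all tested genes 1.29% were called at an edgeR adjusted p under 0.05, 0.872% higher and 0.419% lower. Tbx5 was at 17.2, 20.04, 15.9 and 16.7 CPM in NR libraries 1 to 4, and S-PRT libraries 1 to 4 were at 14.7, 14.2, 13.7 and 17.2 CPM. Of the S-PRT libraries 3 lay below all 4 NR libraries, and S-PRT 4 lay among them. The log2 fold change was -0.22 ± 0.13 SE (edgeR adjusted p = 0.41, approximate 95% interval -0.51 to 0.07). Hcn4 was at 8.85, 12.4, 6.67 and 8.77 CPM in NR and at 10.6, 10.2, 9.04 and 7.84 CPM in S-PRT. The S-PRT libraries all lay within the range of NR, with a log2 fold change of 0.04 ± 0.19 (adjusted p = 0.95, interval -0.38 to 0.46). Myl4 was at 0.603, 0.822, 0.919 and 0.577 CPM in NR and at 0.986, 1.16, 0.800 and 0.782 CPM in S-PRT. S-PRT replicates 1 and 2 lay above all NR libraries and replicates 3 and 4 did not, with a log2 fold change of 0.34 ± 0.24 (adjusted p = 0.49, interval -0.19 to 0.86).

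The comparison of F-PRT with NR asked the same of irradiation at the ultra-high dose rate. Of the 6 genes 3 were tested, of which 1 rose and 0 fell, against 19.5% of all tested genes called in either direction, 10.8% called higher and 8.67% called lower. The gene that rose was Myl4, with counts of 37, 25 and 56 and levels of 1.41, 1.39 and 1.61 CPM in F-PRT replicates 2 to 4. All 3 libraries lay above the 4 NR libraries, as was the case for 17.5% of tested genes. The mean was 0.730 ± 0.167 CPM in NR and 1.47 ± 0.124 CPM in F-PRT (SD, n = 4 and 3). The log2 fold change was 1.01 ± 0.25 SE (edgeR adjusted p = 0.019, interval 0.46 to 1.56), a 2.02-fold rise. The exact permutation p was 0.029, the smallest that 4 against 3 libraries allow. The call was lost without NR 1 (adjusted p = 0.053), without NR 4 (0.054) and without F-PRT 4 (0.065). Those 3 fits called 1408, 1641 and 1391 of 14556 genes, against 2841 as reported. The log2 fold change of Myl4 stayed between 0.90 and 1.15 over the 11 fits that left out a library.

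The other atrial transcripts in the libraries with more Myl4 were as follows. F-PRT replicate 2, with 37 counts of Myl4, had 0 of Myl7, 0 of Sln and 0 of Bmp10. F-PRT replicate 3, with 25 counts of Myl4, had 3 of Myl7, 3 of Sln and 0 of Bmp10. F-PRT replicate 4, with the most Myl4, had 8 counts of Myl7 and 0 of Sln and Bmp10. NR replicates 3 and 4, with less Myl4 in CPM, had 8 and 12 counts of Myl7. NR replicates 1 and 2 had 0 counts of Myl7. What the dissection contributed to the Myl4 result was not tested.

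Tbx5 was at 15.1, 18.1 and 11.3 CPM in F-PRT replicates 2 to 4, a range that takes in values below and within NR. Its log2 fold change against NR was -0.25 ± 0.15 (adjusted p = 0.25, interval -0.57 to 0.07). Its modelled mean length also differed, with 2926 ± 112 bases for NR, 3078 ± 218 for S-PRT and 3425 ± 371 for F-PRT. With those lengths as offsets, an alternative added after the data were seen, the F-PRT value was -0.44 (adjusted p = 0.15). Hcn4 was at 5.77, 9.84 and 8.26 CPM in F-PRT, which overlapped NR, with a log2 fold change of -0.21 ± 0.21 (adjusted p = 0.51, interval -0.67 to 0.25). The S-PRT and F-PRT comparisons share the same 4 NR libraries, so their values for a gene are not independent of each other.

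F-PRT was compared with S-PRT to ask whether the dose rate made a difference at the same dose. No member changed, and of all tested genes 0% were called by edgeR, with 2315 genes at an unadjusted p under 0.05 and 168 called by DESeq2. Myl4 was higher in all 3 F-PRT libraries than in all 4 S-PRT libraries, as were 5.45% of tested genes. Its log2 fold change of 0.68 ± 0.25 SE had an unadjusted p of 0.019 and an edgeR adjusted p of 0.24 (interval 0.13 to 1.22, exact permutation p = 0.057). DESeq2 gave Myl4 no adjusted p in this comparison. Tbx5 had -0.02 ± 0.15 (adjusted p = 0.96, interval -0.34 to 0.29) and Hcn4 had -0.25 ± 0.21 (adjusted p = 0.59, interval -0.71 to 0.22). A difference in Myl4 between the dose rates was thus not shown.

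Transcript length moved with the fold changes of all genes and so stands beside the Myl4 result. Myl4 has a mean effective length of 656 bases, Tbx5 of 3117 and Hcn4 of 5897. Among 2301 tested genes under 1000 bases, 35.2% were called higher in F-PRT than in NR and 0.782% lower, and the median log2 fold change was 0.41. Among 2773 genes over 4000 bases, 1.15% were called higher and 26.1% lower, with a median of -0.30. The Spearman correlation between length and log2 fold change across 14556 genes was -0.55 (F-PRT and NR), -0.38 (S-PRT and NR) and -0.45 (F-PRT and S-PRT). Genes share libraries and are not independent replicates, so this is a description. With the trend on length taken out of each library, an alternative chosen after the data were seen, Myl4 had a log2 fold change of 0.63 in F-PRT against NR (adjusted p = 0.15). Hcn4 then had 0.12 and Tbx5 -0.15 (adjusted p = 0.79 and 0.55). Over all 14556 genes this setting called 491 for F-PRT against NR, in place of 2841. For S-PRT against NR it called 44, in place of 188. Calls lost under it, here and for the genes below, stand beside that general loss. The estimated length of Myl4 itself was 674 ± 82 bases for NR, 677 ± 111 for S-PRT and 604 ± 57 for F-PRT, and with these lengths as offsets Myl4 rose by 1.15 on the log2 scale (adjusted p = 0.035).

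**Figure D3:**
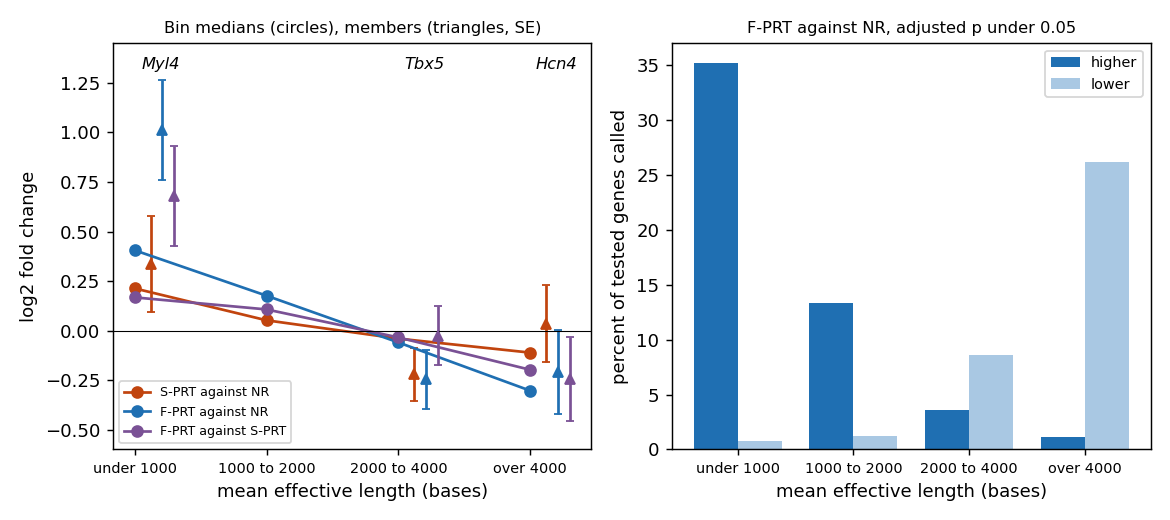
Left, the median log2 fold change of all tested genes in 4 bins of mean effective length (circles joined by lines) for the 3 comparisons, with Myl4, Tbx5 and Hcn4 as triangles with SE beside the circles of their bins. Right, bars give the percent of genes in each bin called higher or lower in F-PRT than in NR, falling from 35.2% to 1.15% for higher calls, and Myl4 (1.01) lies above the median of its bin (0.41).

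**Figure D4:**
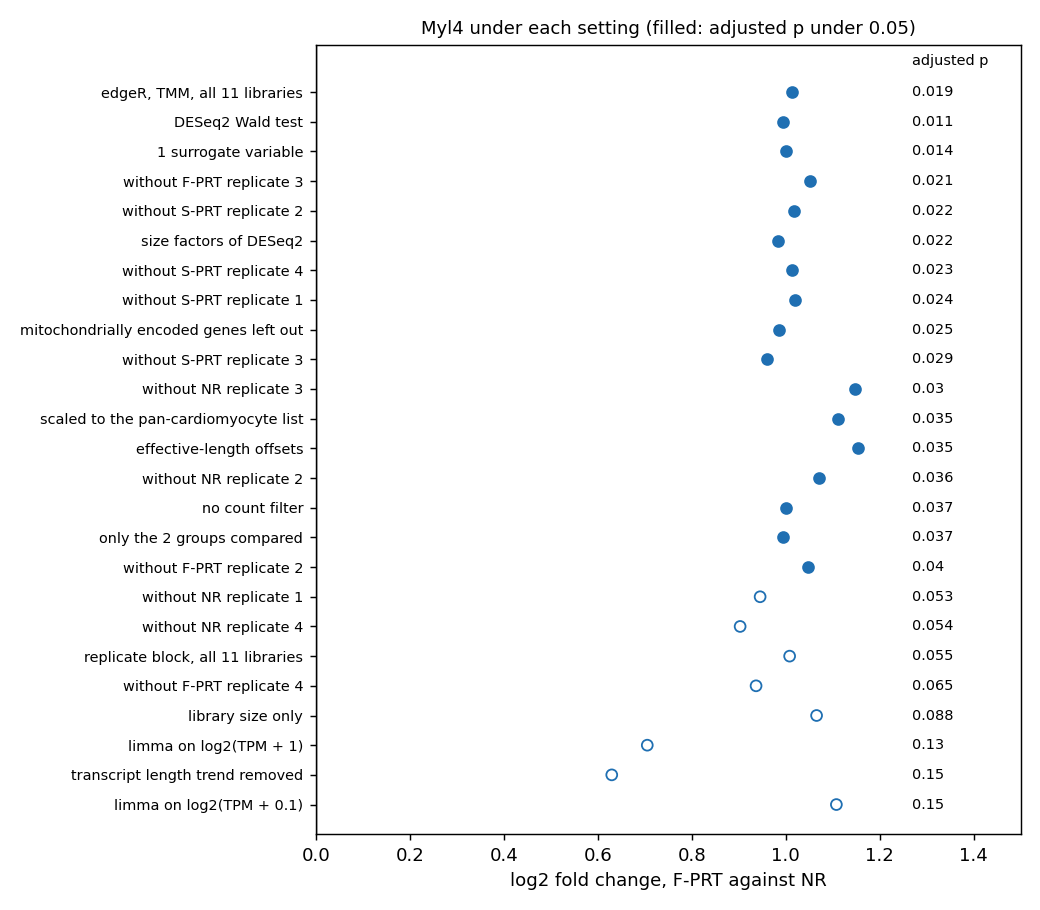
The log2 fold change of Myl4 in F-PRT against NR (x axis) under edgeR with TMM scaling and under each of 24 alternatives, with the adjusted p at the right and filled points where it is under 0.05. All points lie above 0, from 0.63 to 1.15, and 16 of the 24 alternatives are filled.

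The wider atrial list held 19 genes, of which 5 are members and 14 passed the filter. After S-PRT 0 rose and 0 fell, with a median log2 fold change of -0.14 against 0.01 over all tested genes. After F-PRT 1 rose (Myl4) and 0 fell, with a median of -0.19 against 0.03 over all genes. The counts of this and the following lists stand beside the shares of all tested genes given above, 0.872% higher and 0.419% lower for S-PRT and 10.8% higher and 8.67% lower for F-PRT. Nppa, the atrial natriuretic peptide gene that stressed ventricles also use, ran from 78.8 to 109 TPM (NR), 27.5 to 242 TPM (S-PRT) and 155 to 313 TPM (F-PRT). Its 3 F-PRT libraries lay above all NR libraries in TPM, as 17.5% of tested genes did in CPM. The log2 fold change of 1.17 ± 0.47 did not pass (adjusted p = 0.097), and the reads of Nppa were in part shared with other genes. Kcna5, a potassium channel gene, had -0.86 ± 0.28 after S-PRT (adjusted p = 0.14), and Gpr22, a receptor of cardiomyocytes, had -0.65 ± 0.26 after F-PRT (adjusted p = 0.089). In the fit of NR and S-PRT with replicate numbers as a block, 2 of the 14 tested atrial genes fell after S-PRT, Kcna5 (adjusted p = 0.0069) and Gpr22 (adjusted p = 0.026). That fit called 9.8% of all genes, 6.57% higher and 3.22% lower.

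The conduction list held 22 genes besides their regulators, with 18 tested and Isl1, a transcription factor of the sinus node, at 0 counts in all 11 libraries. After S-PRT 0 rose and 1 fell, with a median of -0.04, and after F-PRT 1 rose and 0 fell, with a median of -0.19 (all genes called, 1.29% and 19.5%). Tbx3, a T-box repressor that holds the working-muscle program down in nodal cells, fell from 7.40 ± 0.78 CPM in NR to 4.40 ± 1.17 in S-PRT (SD, n = 4 each). Its log2 fold change of -0.75 ± 0.17 had an edgeR adjusted p of 0.049. Of the 11 fits that left out a library it passed only in those without S-PRT 2 or F-PRT 4. Without a single NR library, the genes called for S-PRT over the whole table numbered 26 to 41, in place of 188. Over all 25 alternatives Tbx3 was called in 9, with adjusted p from 0.0021 (DESeq2) to 0.33 (limma on log2(TPM + 1)). With the trend on length removed it had -0.66 (adjusted p = 0.10). Id2, a repressor of transcription needed for the ventricular conduction system, rose from 3.45 ± 0.32 CPM in NR to 5.28 ± 1.54 in F-PRT (0.63 ± 0.19, adjusted p = 0.040). Its call was lost without any of the 4 NR libraries, S-PRT 3, F-PRT 2 or F-PRT 4, and it had 0.33 with the trend on length removed (adjusted p = 0.29). Gja5, which encodes the gap junction protein of fast-conducting fibres, had -0.80 ± 0.23 after S-PRT (adjusted p = 0.10) and -0.55 ± 0.25 after F-PRT (adjusted p = 0.13).

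**Figure D5:**
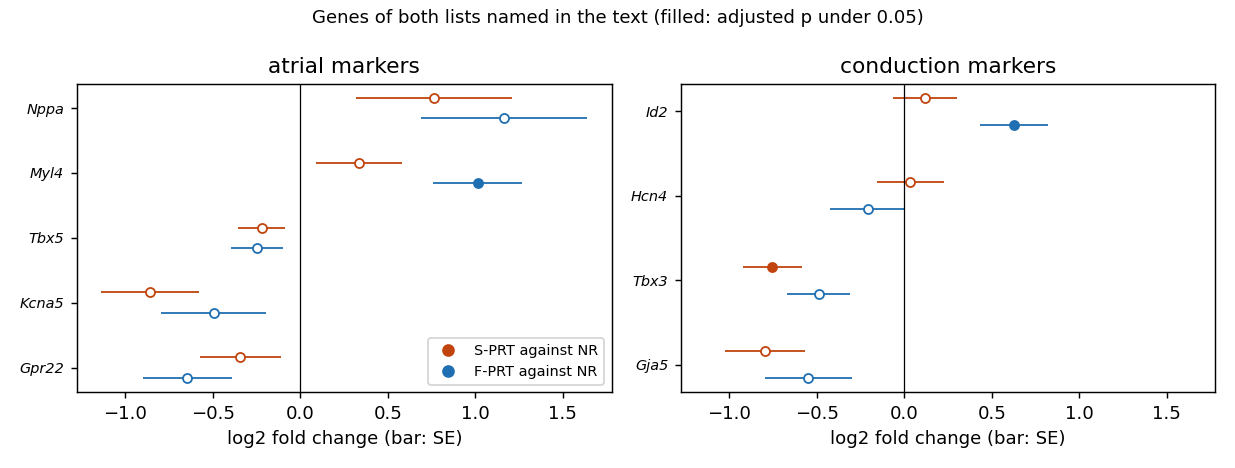
Log2 fold changes with SE of the genes named in the text from the atrial (left) and conduction (right) lists for S-PRT and F-PRT against NR, filled where the edgeR adjusted p is under 0.05. The filled points are Myl4 (1.01) and Id2 (0.63) for F-PRT and Tbx3 (-0.75) for S-PRT.

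Tbx5 works together with other cardiac transcription factors, of which 11 including Tbx5 were listed and 10 tested. After S-PRT 1 rose and 0 fell (median -0.10), and after F-PRT 1 rose and 2 fell (median -0.24), beside 1.29% and 19.5% of all genes called. Hand2, a helix-loop-helix factor of the heart, rose after S-PRT (0.41 ± 0.09, adjusted p = 0.048) and after F-PRT (0.40 ± 0.10, adjusted p = 0.017), though its reads were shared with other genes in every library. Its F-PRT call was lost without F-PRT 4, and its S-PRT call was kept only without S-PRT 2, F-PRT 3 or F-PRT 4. With the trend on length removed Hand2 had 0.41 after S-PRT (adjusted p = 0.053) and 0.36 after F-PRT (adjusted p = 0.042). Mef2c, a factor of muscle genes, fell after F-PRT (-0.35 ± 0.09, adjusted p = 0.019), as did the homeobox gene Meis1 (-0.41 ± 0.11, adjusted p = 0.022). Both calls were lost without NR 1, F-PRT 2 or F-PRT 4, and with the trend on length removed Mef2c had -0.12 (adjusted p = 0.36) and Meis1 -0.43 (adjusted p = 0.052). Expected counts of Meis1 were whole numbers in only 2 of 11 libraries, so its reads were in part shared with other genes. Gata4, a zinc finger partner of Tbx5, had -0.26 ± 0.09 after F-PRT (adjusted p = 0.063).

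Ventricular and general cardiomyocyte genes were read beside the members. Of 10 ventricular genes 0 rose and 0 fell after S-PRT, and 2 rose and 1 fell after F-PRT, where 19.5% of all genes were called. Myl3, the ventricular counterpart of Myl4, rose from 4142 ± 228 to 5726 ± 977 CPM in F-PRT (0.47 ± 0.14, adjusted p = 0.036), but not without any single NR library, S-PRT 3 or F-PRT 4, and had 0.10 with the trend on length removed (adjusted p = 0.59). Lbh, a ventricular cofactor of transcription, had -0.36 after S-PRT (adjusted p = 0.12). The others called were Irx4, a ventricular transcription factor (0.37, adjusted p = 0.041), and the potassium channel gene Kcnj2 (-0.50, adjusted p = 0.0496), each kept in 3 of 11 fits without a library. With the trend on length removed Irx4 had 0.36 (adjusted p = 0.10) and Kcnj2 -0.22 (adjusted p = 0.48). Of 14 general cardiomyocyte genes 0 changed after S-PRT, and after F-PRT 2 rose, Tnnc1 (0.61) and Tcap (0.50), and 1 fell, Ryr2 (-0.86, lost without NR 1, NR 2, F-PRT 2 or F-PRT 4), while Ttn had -0.43 (adjusted p = 0.17). With the trend on length removed, where 491 of 14556 genes were called in place of 2841, none of these 3 calls held. Tnnc1 had 0.19 (adjusted p = 0.20), Tcap 0.14 (adjusted p = 0.48) and Ryr2 -0.46 (adjusted p = 0.11). Scaled to the summed counts of this cardiomyocyte list, Myl4 in F-PRT had 1.11 (adjusted p = 0.035).

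Markers of tissues next to the apex, or that share genes with the atrium, were at these levels. Of 14 skeletal muscle genes 6 were tested and 0 changed in any comparison. Their summed TPM came mostly from Eno3 (mean 715), which the heart also uses, while the fast myosin genes Myh1, Myh2 and Myh4 had group means of 0.0067 TPM or less. After S-PRT Myl1, Mybpc2, Atp2a1 and Tnni2 had 0.65, 0.68, -0.86 and 0.25 (adjusted p = 0.15 to 0.69). After F-PRT they had 0.28, 0.96, -0.16 and 0.46, with Mybpc2 nearest to the threshold (adjusted p = 0.077). Of 8 adipocyte genes only Plin4, which cardiomyocytes also express, was tested, and it fell after F-PRT (-0.64, adjusted p = 0.0046), with -0.33 once the trend on length was removed (adjusted p = 0.063). The other 7 adipocyte genes summed to 0 to 0.25 TPM in NR, 0 to 0.37 TPM in S-PRT and 0.13 to 0.91 TPM in F-PRT, and Adipoq, an adipocyte hormone gene, had group means of 0.005, 0 and 0.07 TPM. None of 8 lung and airway genes passed the filter, with 3 of them at 0 counts everywhere, and their sums were 0.08 to 0.17 TPM in NR, 0.10 to 0.19 TPM in S-PRT and 0.12 to 0.71 TPM in F-PRT. Ager, the most abundant of them, had group means of 0.11, 0.095 and 0.33 TPM. The highest of these adipocyte and lung sums were in F-PRT libraries, and the groups overlapped. They rest on few counts, with 2 to 21 per F-PRT library for the 7 adipocyte genes. The ventricular, general cardiomyocyte and skeletal muscle lists also had their highest sums in F-PRT (26594, 53675 and 979 TPM). So did the atrial, cardiac regulator, erythroid, and Schwann cell and neuron lists (599, 395, 4398 and 19.3 TPM). The conduction, endocardial and epicardial lists had theirs in NR (74.9, 14.3 and 11.7 TPM), and smooth muscle in S-PRT (120 TPM). For the conduction list the highest F-PRT sum was nearly the same, at 74.6 TPM.

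Blood and vessel genes varied widely between libraries. The summed level of 7 erythroid genes, of which Hba-a2 was the most abundant, was 1631 to 4009 TPM in NR, 1056 to 1977 TPM in S-PRT and 936 to 4398 TPM in F-PRT. None of the 7 changed in any comparison. After F-PRT Alas2, Slc4a1, Hba-a2 and Hba-a1 had -0.93, -1.24, -0.47 and -0.40 (adjusted p = 0.16 to 0.54). Of 6 smooth muscle genes, led by Smtn, 0 changed, and Acta2, Cnn1, Tagln and Myh11 had 0.93, 1.66, 0.98 and 0.28 after S-PRT (adjusted p = 0.13 to 0.73) and 0.30, 1.15, 1.14 and -0.07 after F-PRT (adjusted p = 0.19 to 0.92).

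Among 6 tested Schwann cell and neuron genes Uchl1 rose after F-PRT (0.85, adjusted p = 0.0089, and 0.52 with adjusted p = 0.10 once the trend on length was removed), while Dbh and S100b had 0.75 and 0.78 (adjusted p = 0.20 and 0.21). Among 6 tested endocardial and valve genes Npr3, a clearance receptor for natriuretic peptides, fell after F-PRT (-1.04, adjusted p = 0.035), though not without NR 1, NR 2, NR 4, F-PRT 3 or F-PRT 4, and it had -0.75 with the trend on length removed (adjusted p = 0.18). Cytl1, Comp and Tmem108 had -0.74, -0.51 and 0.13 (adjusted p = 0.19 to 0.81). Of 5 tested epicardial and mesothelial genes 0 changed, with sums of 2.09 to 11.7 TPM in NR, 2.40 to 4.21 TPM in S-PRT and 1.71 to 5.09 TPM in F-PRT. After F-PRT Upk3b, Msln, Krt19 and Aldh1a2 had -3.48, -3.15, -0.94 and 0.14 (adjusted p = 0.051 to 0.73), and after S-PRT -3.47, -2.62, -2.02 and 0.40 (adjusted p = 0.11 to 0.42). With replicate numbers as a block in NR and S-PRT alone, where 1426 genes were called in place of 188, S-PRT against NR added to these lists a rise of Tnnc1 (adjusted p = 0.041), Mybpc2 (0.028) and Uchl1 (0.024). It also added a fall of Lbh (0.019), Plin4 (0.030), Npr3 (0.0021) and Upk3b (0.048). The part of other cells in the member results was not tested.

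Across the 11 libraries, none of the 15 pairs of members had a correlation of log2 CPM that passed adjustment. Between Myl4 and Tbx5, Pearson's r was -0.49 (permutation p = 0.12, adjusted p = 0.92) and Spearman's rho -0.40 (p = 0.22, adjusted p = 0.84), and r was -0.20 without the 2 libraries farthest from the median of Myl4. Between Tbx5 and Hcn4 r was 0.28 (permutation p = 0.41, adjusted p = 0.92) and rho 0.15 (p = 0.65, adjusted p = 0.98), and r was -0.07 without 2 libraries. Between Myl4 and Hcn4 r was -0.20 (permutation p = 0.56, adjusted p = 0.92) and rho -0.06 (p = 0.86, adjusted p = 1), and r was -0.21 without 2 libraries. Pairs with Myl7, Sln or Bmp10 rest on a few counts.

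Among 10581 genes, those whose log2 CPM ran most like Myl4 over the 11 libraries were Mad2l1bp (r = 0.95), Prss36 (0.95) and Psmd4 (0.94). For Tbx5 they were Parg (0.97), Pcnt (0.96) and Mgea5 (0.96), and for Hcn4 they were Smim13 (0.89), Vps54 (0.88) and Heca (0.87). For the mean of Myl7, Myl4 and Sln, which rests largely on a few Myl7 counts, they were Lipt2 (0.86), Psap (0.84), Fndc4 (0.84), Rhd (0.83) and Repin1 (0.82). These likenesses are the highest of many and share the libraries, their depth and the trend on length, and they are given as descriptions.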

How the data were processed

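Each library's deposited table gives expected counts, TPM, FPKM (not used here) and effective lengths, per the file headers. The submitters' processing notes list FastQC, cutadapt, STAR, RSEM and edgeR without versions. They name GRCm39 as well as mm10, so no coordinates are given. The authors' TPM correct for effective length and sum to the same total in each library. For strand use in counting, nothing is given in the sources used here. Of 55414 identifiers, 52081 matched a symbol.

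Expected counts were rounded, filtered with filterByExpr (minimum count 10, total 15) and scaled with TMM. All 11 libraries entered a single edgeR quasi-likelihood model (glmQLFit, version 4.0.16, run under R 4.3.3), which left 8 residual degrees of freedom. A gene was called where its p, after Benjamini-Hochberg adjustment over 14556 genes, was under 0.05. Log2 CPM used a prior count of 2. Alternatives were DESeq2 1.42.0 (its test, and its size factors), limma 3.58.1 on log2(TPM + 1) and log2(TPM + 0.1), and a surrogate variable from sva 3.50.0. They also took in scaling by library size or by cardiomyocyte genes, no mitochondrial genes, no count filter, only the groups compared, a replicate block, each library left out, and 2 length corrections added after the data were seen. The script was tested on simulated data with no trend on length, so that test does not bear on how the trend affects the calls. Deviations from group means over 11107 genes served to check pairing by the numbers in the titles. All 4 same-numbered pairs of NR and S-PRT correlated above 0.1 (0.18 to 0.36), and those with F-PRT ran from -0.45 to 0.23. Some differently numbered libraries of NR and S-PRT correlated more, NR 2 with S-PRT 1 at 0.44 and NR 3 with S-PRT 4 at 0.37. Libraries numbered 1 or 2 in either of these groups correlated negatively with those numbered 3 or 4 in the other. The numbers are therefore not established as pairs. The reported fit and the permutations do not use the numbers, which enter only as a block in alternatives.

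The members and gene lists were chosen with earlier results of these data known. All 6 members are named. Some list genes that the rule below selects are not reported here. Of each list, the genes called in any comparison are named, and where these are fewer than 4, the genes of smallest p up to 4. For lists of other tissues the most abundant gene is named too. Defining markers of other tissues at or near 0, and Myl2, are named outside this rule. Likeness was ranked by Pearson's r among genes whose mean log2 CPM was 1 or more, without predicted genes and pseudogenes, with 3 genes for each member tested and 5 for the mean of Myl7, Myl4 and Sln.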

Additional observations from a re-analysis of the deposited data

Results flagged for a closer look

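Among the 4 S-PRT libraries, Hcn4 was at 1.25 TPM in replicate 2 and at 1.31 TPM in each of the other 3, so that its gap to the rest took up the whole range of the group. The values are deposited to 2 decimals, at which the other 3 are tied, and how often such a gap arises by chance was not tested. On the CPM scale the same library (10.2 CPM) lay among the other 3.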

How the results depend on the processing

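No member was called for S-PRT against NR or F-PRT against S-PRT under any of the 25 and 24 alternatives. For F-PRT against NR, the number of members called was 1 in 16 of 24 alternatives and 0 to 1 over the fits that left out a library. It was 0 with library size only (Myl4 1.07, adjusted p = 0.088), with limma on log2(TPM + 1) (0.71, 0.13) and log2(TPM + 0.1) (1.11, 0.15), and with the length trend removed (0.63, 0.15). It was also 0 with the replicate numbers as a block in all 11 libraries (1.01, 0.055). In that order, these 5 settings called 134, 71, 74, 491 and 1501 of 14556 genes for F-PRT against NR. The reported fit called 2841, so calls were fewer over the whole table and not for Myl4 alone. For S-PRT against NR, the block in NR and S-PRT alone called 0 members, gave Hcn4 0.06 and called 1426 genes. Leaving out F-PRT without a block called 583, and the block in all 11 libraries called 60, against 188 as reported.

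Hcn4 in S-PRT against NR, near 0, turned to -0.11 with library size only, -0.087 with log2(TPM + 1) and -0.13 with log2(TPM + 0.1), where the medians of all genes were -0.14, -0.13 and -0.19. It ran from -0.091 to 0.21 without single libraries. Hcn4 in F-PRT against NR was 0.12 with the length trend removed. Tbx5 in F-PRT against S-PRT was 0.13 (library size only), 0.0064 (log2(TPM + 1)), 0.013 (log2(TPM + 0.1)) and 0.013 (length trend removed), and -0.20 to 0.14 without single libraries. On mean log2 CPM, library size only gave 0.14 for Tbx5 in F-PRT against S-PRT and -0.074 for Hcn4 in S-PRT against NR. Myl4 in F-PRT against S-PRT was 0.80 (library size only) and 0.67 (cardiomyocyte scaling), each at the smallest permutation p, 0.029. Without single libraries, mean log2 CPM differences were -0.22 to 0.85 for Myl7, 0.87 to 1.08 for Myl4 (permutation p 0.067 to 0.10) and -0.37 to 0.0093 for Hcn4 in F-PRT against NR. They were -0.19 to 0.15 for Tbx5 in F-PRT against S-PRT and -0.078 to 0.22 for Hcn4 in S-PRT against NR. The cause of these changes was not tested.

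Genes called over the whole table ranged from 2 to 1426 for S-PRT against NR, from 71 to 4159 for F-PRT against NR (2841 as reported) and from 0 to 168 for F-PRT against S-PRT. Of the 188 genes called for S-PRT, 127 were higher and 61 lower, against 30 and 3 with cardiomyocyte scaling and 11 and 3 with library size only. Counts of 0 to 56 per library limit what Myl7, Sln, Bmp10 and Myl4 can show.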

Other observations

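Mybphl, an atrial myosin-binding protein gene, had 0 to 2 counts per library, and Vsnl1, a calcium sensor of the sinus node, had 0 or 1. Neither passed the count filter, and both were picked out after their values were seen.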
